A study of Mus musculus with 6 samples.

Results

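Small leucine-rich proteoglycans are secreted matrix proteins with a core of leucine-rich repeats, to which most members carry chondroitin, dermatan or keratan sulfate chains. They bind collagen and regulate the assembly of its fibrils, and several of them also bind growth factors and cell surface receptors. Fibroblasts, tendon, cartilage and bone are among their main sources. The 8 genes described here were picked by symbol from a deposited table of 26231 genes. They were Dcn (decorin), Bgn (biglycan) and Aspn (asporin) of class I, Lum (lumican), Fmod (fibromodulin) and Prelp of class II, Ogn (osteoglycin) of class III and Podn (podocan) of class V. Their difference between the cell lines was known when they were picked, so it is given below as a description, without a test.

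Total RNA was sequenced from immortalized mouse embryonic fibroblasts (MEFs), with 3 libraries of MEF Nf2fl/fl and 3 libraries labelled MEF Nf2-/-. All cells came from FVB embryos, of approximately 14 days by the labels and of a slightly earlier day by the study's methods, whose Nf2 alleles were flanked by loxP sites, were immortalized with SV40 large T antigen, and were kept for 24 h without serum before RNA was harvested. MEF Nf2fl/fl (the WT control of the labels) received a CMV-GFP control lentivirus, and MEF Nf2-/- (Nf2 KO in the labels) a CMV-Cre GFP puro lentivirus, in which the ubiquitous CMV promoter drives the recombinase that removes the flanked part of Nf2. Each genotype was 1 immortalized line, so the genotype and any other difference between the 2 lines cannot be told apart, and the sources used here do not say whether same-line replicates were separate cultures. P-values therefore measure only the spread between these libraries.

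The values were taken as RPKM, read counts divided by gene length and library depth, a scale that allows levels of different genes to be compared. The steps between low values put the depth at about 13430000 to 72930000 reads per library, with replicate 3 (marked with a year in the labels) the deepest in both lines. Nf2 was 14.3, 13.7 and 13.1 RPKM in MEF Nf2fl/fl against 15.4, 12.9 and 13.9 RPKM in libraries labelled MEF Nf2-/-, a log2 fold change of 0.03 (SE 0.10, adjusted p = 0.988 from limma), so the RNA level of the targeted gene did not separate the lines and all directions below follow the labels. Of 11 fibroblast markers, 10 reached 1 RPKM in all 6 libraries. The exception was Pdgfra, at 12.3, 5.22 and 11.7 RPKM in MEF Nf2fl/fl against 1.42, 0.657 and 0.962 RPKM in libraries labelled MEF Nf2-/-. The summed fibroblast markers were 2061 to 2863 RPKM in MEF Nf2fl/fl against 1454 to 2030 RPKM in libraries labelled MEF Nf2-/-, which did not overlap, and the part of this in the results below was not tested. The sum was carried by Vim, Col1a1, S100a4 and Col1a2, and the lines of 4 of the 11 (Pdgfra, S100a4, Thy1 and Vim) did not overlap in the lower direction, those of Twist1 in the higher direction, and those of the other 6 overlapped. Over all 11067 genes that reached 1 RPKM in at least 3 libraries, 7.52% did not overlap in the lower direction and 7.6% in the higher. S100a4 was 723, 612 and 718 RPKM in MEF Nf2fl/fl against 271, 256 and 365 RPKM in libraries labelled MEF Nf2-/-, and Twist1 31.6, 27.9 and 29.4 against 47.8, 34.5 and 43.7 RPKM. Of the listed markers of other sources of these proteoglycans, Acan, Col11a2, Matn1 and Hapln1 of cartilage, Tnmd and Thbs4 of tendon and Bglap, Ibsp, Sp7, Dmp1 and Phex of bone stayed under 1 RPKM in all libraries. Matn3 of cartilage exceeded it only in the library labelled MEF Nf2-/- replicate 3, at 1.70 RPKM. The summed levels were 8.91 to 15.5 and 8.96 to 22.7 RPKM for 7 measured cartilage markers, 3.76 to 9.68 and 3.35 to 8.90 RPKM for 4 tendon markers, and 3.11 to 3.39 and 2.52 to 3.08 RPKM for 6 bone markers, MEF Nf2fl/fl being given first. Of these, the bone markers did not overlap between the lines. The sums were carried by Sox9 (5.79 to 18.9 RPKM over the 6 libraries) and Col2a1 (0.53 to 4.0) for cartilage, Scx (0.801 to 6.83) and Mkx (2.43 to 4.35) for tendon and Runx2 (2.37 to 2.87) for bone. Ptprc, Csf1r and Adgre1 (macrophage), Epcam and Cdh1 (epithelial), Pecam1 and Cdh5 (endothelial) and Myog (skeletal muscle) were also under 1 RPKM throughout, but other genes of these lists were not. Krt19 of the epithelial list was at 10.4 to 39.5 RPKM, Cd68 and Cd14 of the macrophage list at 5.08 to 8.10 and 1.49 to 3.59, Kdr of the endothelial list at 1.32 to 4.39 and Acta1 of the muscle list at 0.252 to 6.25. The summed levels, MEF Nf2fl/fl first, were 21.9 to 39.8 and 10.9 to 27.9 RPKM for epithelial, 9.24 to 12.0 and 7.41 to 9.47 for macrophage, 1.46 to 3.89 and 1.52 to 4.45 for endothelial and 0.879 to 6.63 and 0.822 to 3.11 for muscle markers, all overlapping. In bulk RNA, fewer cells that express a gene and less of its RNA per cell cannot be told apart.

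The members differ in where their genes lie. On GRCm38 (GENCODE vM21), Dcn (chr10:97479609-97518143, plus strand) and Lum (chr10:97565128-97572703, plus) are neighbours, in a stretch of 202.8 kb that also holds the family genes Kera and Epyc, while Aspn (chr13:49544443-49567565, plus) and Ogn (chr13:49608046-49624501, plus) share 119.7 kb with Omd and Ecm2. Prelp (chr1:133910304-133921414, minus) and Fmod (chr1:134037254-134048277, plus) lie within 151.1 kb beside Optc. Bgn is at chrX:73483602-73495933 (plus) and Podn at chr4:108014791-108096445 (minus). RefSeq (GRCm38.p6) promoters were at hand for 6 members, and those of Bgn, Aspn and Ogn are shown, Bgn being the most abundant member and Aspn and Ogn being neighbours with the same order of replicates in each line. The 250 bases before each start are in lower case, with capitals for the TATA box (TATAAA), the MCAT element bound by TEAD factors (GGAATG) and the GC box (GGGCGG), each searched on both strands.
Bgn promoter, chrX:73483351-73483600, plus strand: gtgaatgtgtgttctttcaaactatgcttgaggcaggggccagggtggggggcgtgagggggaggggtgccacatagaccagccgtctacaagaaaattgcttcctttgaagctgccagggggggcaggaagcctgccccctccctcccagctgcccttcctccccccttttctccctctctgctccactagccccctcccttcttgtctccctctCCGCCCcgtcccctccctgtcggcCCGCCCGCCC
Aspn promoter, chr13:49544193-49544442, plus strand: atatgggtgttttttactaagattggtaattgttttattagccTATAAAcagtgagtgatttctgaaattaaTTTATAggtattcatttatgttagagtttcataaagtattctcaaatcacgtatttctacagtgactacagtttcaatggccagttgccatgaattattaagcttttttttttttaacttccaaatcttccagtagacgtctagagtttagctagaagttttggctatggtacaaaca
Ogn promoter, chr13:49607765-49608014, plus strand: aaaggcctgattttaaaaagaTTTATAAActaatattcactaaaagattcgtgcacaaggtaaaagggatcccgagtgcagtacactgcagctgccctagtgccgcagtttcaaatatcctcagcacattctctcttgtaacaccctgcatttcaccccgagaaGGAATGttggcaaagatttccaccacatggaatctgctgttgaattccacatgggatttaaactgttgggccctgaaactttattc
The Bgn promoter had a GC content of 64.4%, higher than 81.6% of all 32851 promoters in the table, and held 3 GC boxes on the opposite strand, all within 34 bases of the start and the last pair overlapping. The Aspn promoter, at 30.0% GC, was among the most AT-rich, with only 1.47% of promoters lower, and held 2 TATA boxes, 1 on each strand, at 207 and 178 bases before the start. The Ogn promoter had 42.0% GC, 2 overlapping TATA boxes on opposite strands that start 229 and 227 bases before the start, and 1 MCAT element 86 bases before it. TATAAA occurs in 12.4%, GGAATG in 12.6% and GGGCGG in 32.7% of all promoters over the same 250 bases. Of the other members, the upstream Podn promoter (78.0% GC) held 2 GC boxes, and the second Podn promoter and those of Prelp and Fmod held none of the 3 motifs.

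Bgn supplied most of the proteoglycan RNA in every library. Its level ranked between 111 and 202 of the 26231 genes, and it made up 71.8% to 94.4% of the summed RPKM of the 8 members. In MEF Nf2fl/fl the mean levels were 260 ± 46.4 RPKM for Bgn, 10.7 ± 5.49 for Ogn, 4.54 ± 0.719 for Podn, 3.58 ± 2.33 for Fmod, 3.36 ± 1.97 for Prelp, 2.73 ± 2.04 for Aspn, 2.73 ± 1.21 for Dcn and 0.151 ± 0.0844 for Lum (SD, n = 3 each). From Ogn to Dcn each neighbour in this order overlapped the next in its range over the libraries, although Ogn and Podn lay wholly above Dcn, while Bgn lay above and Lum below all others. Among those labelled MEF Nf2-/-, Bgn (194 ± 14.9 RPKM) and Ogn (31.8 ± 24.2 RPKM) again led, Podn, Prelp, Aspn and Fmod lay at 3.68 ± 1.34, 2.77 ± 1.34, 2.38 ± 2.07 and 1.19 ± 0.467 RPKM, each overlapping the next in range although Podn lay wholly above Fmod, and Dcn (0.0906 ± 0.0563 RPKM) and Lum (0.0130 ± 0.0226 RPKM) lay below them and overlapped each other (SD, n = 3 each). Outside Bgn, Ogn accounted for 23.0% to 54.0% of the remaining proteoglycan RNA in MEF Nf2fl/fl and for 50.0% to 80.4% in libraries labelled MEF Nf2-/-, ranges that overlapped.

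**Figure D1:**
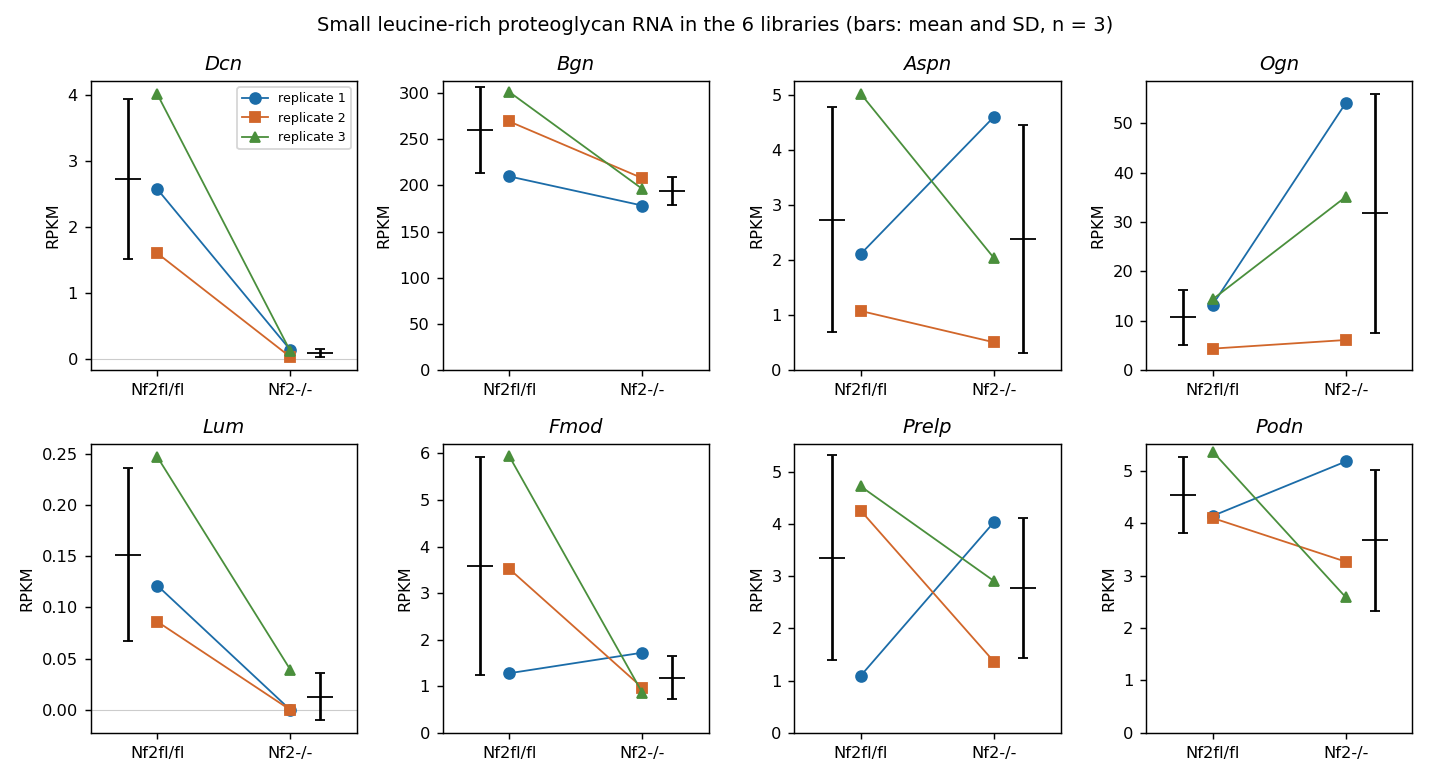
RPKM (linear axes) of the 8 proteoglycan genes in each library, with lines joining same-numbered replicates of MEF Nf2fl/fl and of the libraries labelled MEF Nf2-/-, and black bars for mean and SD (n = 3). Dcn, Bgn and Lum have no overlap between the cell lines, Ogn is higher in the library labelled MEF Nf2-/- of each pair, and the other 4 genes have pairs in both directions.

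Between the lines, Dcn stood apart among the class I genes. Decorin, the best known member, binds collagen fibrils and sequesters TGF-beta. Dcn was 2.57, 1.60 and 4.01 RPKM in replicates 1, 2 and 3 of MEF Nf2fl/fl against 0.133, 0.0266 and 0.112 RPKM in libraries labelled MEF Nf2-/-. All 3 libraries labelled MEF Nf2-/- thus lay far below the lowest MEF Nf2fl/fl library, and the mean there was 3.32% of that in MEF Nf2fl/fl. The log2 fold change on the log2(RPKM + 1) scale was -1.72 (SE 0.24), a scale that understates the change of genes this low. Within replicates 1, 2 and 3, the RPKM of MEF Nf2fl/fl was 19.4 (11.3 to 36.1), 60.0 (20.2 to 294) and 35.6 (26.7 to 48.5) times that of the library labelled MEF Nf2-/-, with exact 95% intervals for counting error only. The libraries labelled MEF Nf2-/- held about 14, 3 and 48 Dcn reads, so the ratio of replicate 2 has a wide interval.

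Biglycan, which binds collagen, TGF-beta and Toll-like receptors, was lower by much less. Bgn was 209.7, 269 and 301 RPKM in MEF Nf2fl/fl against 178, 208 and 196 RPKM in libraries labelled MEF Nf2-/-. The lines did not overlap, but the lowest MEF Nf2fl/fl library was only just above the highest library labelled MEF Nf2-/-. The log2 fold change was -0.41 (SE 0.15), and the differences within replicates 1, 2 and 3 were -0.23, -0.37 and -0.62 on the same scale. Asporin, which binds collagen and TGF-beta, showed no shared direction. Aspn was 2.11, 1.08 and 5.02 RPKM in MEF Nf2fl/fl against 4.60, 0.507 and 2.03 RPKM in libraries labelled MEF Nf2-/-. The lines overlapped, with a log2 fold change of -0.20 (SE 0.56) that joined a difference of 0.85 in replicate 1 to differences of -0.46 and -0.99 in replicates 2 and 3. The antisense gene Cenpp, at up to 2.26 RPKM, shares 7 bp of the Aspn exons.

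The class II genes encode keratan sulfate proteoglycans and PRELP, which anchors matrix to basement membranes. Lum had very little RNA, at 0.121, 0.0862 and 0.247 RPKM in MEF Nf2fl/fl, on about 4, 4 and 37 reads. Of the libraries labelled MEF Nf2-/-, replicates 1 and 2 listed it at 0 and replicate 3 at 0.0391 RPKM, about 7 reads. The lines did not overlap, in the same direction as for its neighbour Dcn, but at this depth the first replicates cannot show a fold change. In replicate 3 the RPKM ratio of MEF Nf2fl/fl to the library labelled MEF Nf2-/- was 6.31 (exact 95% counting interval 2.78 to 16.8). Fmod was 1.28, 3.52 and 5.95 RPKM in MEF Nf2fl/fl against 1.72, 0.972 and 0.865 RPKM in libraries labelled MEF Nf2-/-. The lines overlapped through replicate 1 of each line, and the log2 fold change of -0.95 (SE 0.40) combined 0.26 in replicate 1 with -1.20 and -1.90 in replicates 2 and 3. Prelp was 1.10, 4.25 and 4.72 RPKM in MEF Nf2fl/fl against 4.04, 1.36 and 2.91 RPKM in libraries labelled MEF Nf2-/-. Here too the lines overlapped, and a log2 fold change of -0.15 (SE 0.45) joined 1.26 in replicate 1 to -1.15 and -0.55 in replicates 2 and 3. The antisense transcript Gm15851 covers 9.68% of the Prelp exons and reached at most 0.382 RPKM, and whether strand was used in counting is not given in the sources used here.

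Ogn, which encodes osteoglycin (mimecan), was the only member with higher values in the library labelled MEF Nf2-/- of every pair. It was 13.3, 4.38 and 14.4 RPKM in MEF Nf2fl/fl against 54.2, 6.12 and 35.1 RPKM in libraries labelled MEF Nf2-/-. The lines overlapped through the library labelled MEF Nf2-/- replicate 2, the other 2 libraries of that label lying above all of MEF Nf2fl/fl. The log2 fold change was 1.20 (SE 0.80), and the RPKM ratio of the library labelled MEF Nf2-/- to MEF Nf2fl/fl was 4.08 (3.69 to 4.51), 1.40 (1.17 to 1.68) and 2.44 (2.33 to 2.57) within replicates 1, 2 and 3, with exact 95% counting intervals. Podn, whose protein binds collagen, was 4.14, 4.10 and 5.37 RPKM in MEF Nf2fl/fl against 5.18, 3.27 and 2.59 RPKM in libraries labelled MEF Nf2-/-. Its lines overlapped, with a log2 fold change of -0.27 (SE 0.21) and differences of 0.27, -0.26 and -0.83 within replicates 1, 2 and 3.

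**Figure D2:**
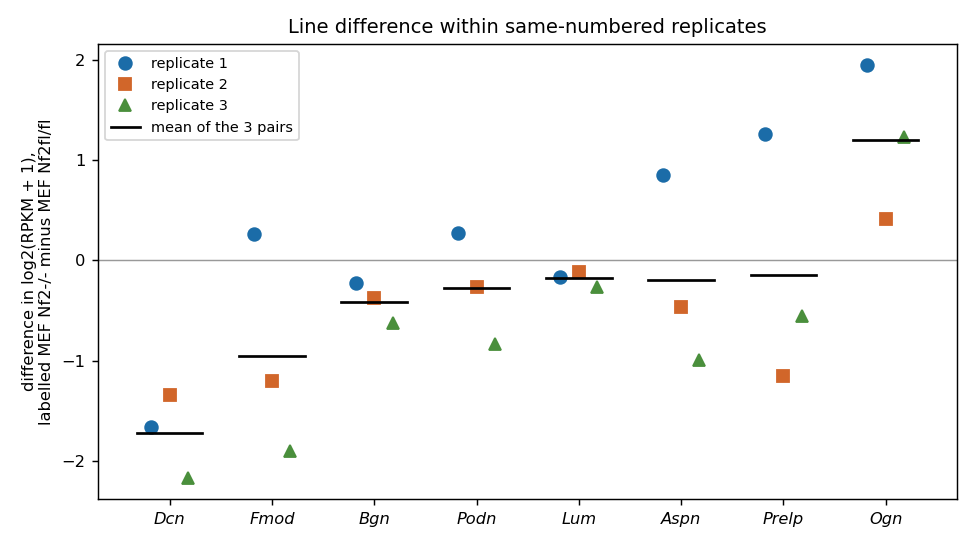
Difference in log2(RPKM + 1), the library labelled MEF Nf2-/- minus MEF Nf2fl/fl, for each proteoglycan gene within replicates 1, 2 and 3, with a black line for the mean of the 3 pairs. Dcn, Bgn and Lum are below 0 and Ogn above 0 in all pairs, while replicate 1 is above 0 and replicates 2 and 3 below 0 for Fmod, Podn, Aspn and Prelp.

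In all, 3 of the 8 members were lower in the library labelled MEF Nf2-/- of every pair, 1 was higher in every pair, and 4 had pairs in both directions, with replicate 1 on the higher side each time. Of the 8, 7 passed the filter of at least 1 RPKM in at least 3 libraries, Lum being the exception, and Dcn passed it through the MEF Nf2fl/fl libraries alone. The lines of 2 of these 7 did not overlap, Dcn and Bgn, both lower in libraries labelled MEF Nf2-/-. Over all 11067 genes past the filter, 15.1% had lines that did not overlap, 7.6% with the libraries labelled MEF Nf2-/- higher and 7.52% with them lower. As the genes were picked with this contrast known, nothing is read from this count. The median log2 fold change of the 7 was -0.27, against -0.0078 over all genes tested, and the median absolute value was 0.41 against 0.10. For the same reason, nothing is read from these medians.

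The replicate number, which the choice of genes did not use, gave a contrast that could be tested. With the line in the model, 21.2% of all genes tested differed between replicates 1, 2 and 3 (limma F test, adjusted p under 0.05), and of the 7 members 1 did, Ogn. Averaged over the lines, Ogn in replicate 2 was lower than in replicate 1 by a log2 difference of -2.18 and lower than replicate 3, which exceeded it by 1.93 (SE 0.34 each, adjusted p = 0.0226 from the limma F test). Replicate 2 held the lowest Ogn value of each line. The call was lost without replicate 2 of both lines (adjusted p = 0.73 from limma), replicate 3 of both lines (0.0538), MEF Nf2fl/fl replicate 3 (0.0970), the library labelled MEF Nf2-/- replicate 2 (0.0869) or replicate 3 (0.0993), and with no filter on low values (0.177), and it held in the other 9 of 15 alternatives, down to 0.0164. Aspn, its neighbour, had differences of the same sign, -1.24 between replicates 2 and 1 and 1.27 between replicates 3 and 2 (SE 0.42 each), but was not past the threshold (adjusted p = 0.108 from the limma F test). It passed without replicate 1 of both lines, MEF Nf2fl/fl replicate 1 or the library labelled MEF Nf2-/- replicate 1 (adjusted p = 0.0142, 0.0174 and 0.0299 from limma), and without the last Prelp passed too (0.0407). Bgn and Dcn were at adjusted p of 0.159 and 0.201, and Podn, Fmod and Prelp at 0.616, 0.660 and 0.689 from the limma F test, with SEs of 0.12 to 0.55, so smaller differences between replicates could not be seen.

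Omd (osteomodulin), which lies between Aspn and Ogn, was under the filter but followed the same order. Its values were 0.330, 0.0234 and 0.341 RPKM in MEF Nf2fl/fl against 1.06, 0.231 and 0.432 RPKM in libraries labelled MEF Nf2-/-. In Aspn, Omd and Ogn alike, replicate 2 was the lowest library of each line. Ecm2, the remaining gene of the stretch, was at most 0.0337 RPKM, with its lowest MEF Nf2fl/fl value, 0, in replicate 1. Of the 11 fibroblast markers, 9 also had the lowest value of each line in replicate 2, while Thy1 had its highest there in both lines and Vim its highest there in the line labelled MEF Nf2-/-. The share of all genes with that order is not given here, so 9 of 11 cannot be called unusual. Of the 9, 4 differed between replicate numbers (Col1a1, Col1a2, Col3a1 and Pdgfrb, adjusted p = 0.0232, 0.00660, 0.00606 and 0.00464 from the limma F test). The other 5 were not past the threshold (Pdgfra 0.0590, Prrx1 0.0973, Twist1 0.129, S100a4 0.185 and Fbn1 0.358, adjusted p from the limma F test), and Thy1 was, in the other direction (adjusted p = 0.0319 from the limma F test). The part of that in the Ogn difference was not tested.

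**Figure D3:**
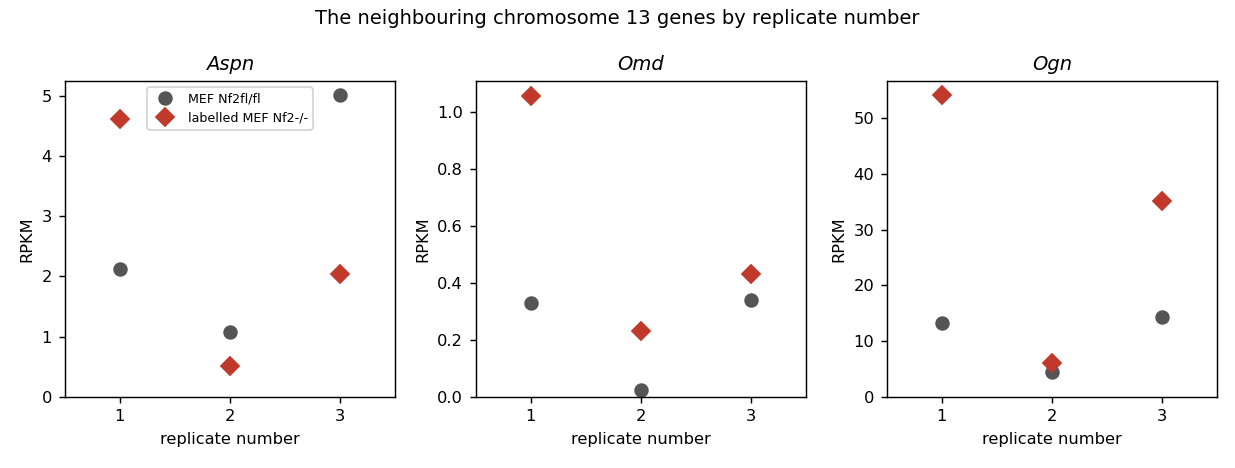
RPKM (linear axes from 0) of Aspn, Omd and Ogn, neighbours on chromosome 13, against the replicate number, with circles for MEF Nf2fl/fl and diamonds for the libraries labelled MEF Nf2-/-. Replicate 2 is lowest in both lines for each gene, with Ogn at 4.38 and 6.12 RPKM there.

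The other family members were mostly below the filter. Of 10 further genes of the family (Omd, Kera, Epyc, Optc, Nyx, Chad, Chadl, Tsku, Podnl1 and Ecm2), 2 passed the filter. Tsku (tsukushi, a BMP antagonist) was the highest, at 9.64, 11.5 and 10.8 RPKM in MEF Nf2fl/fl against 8.66, 10.2 and 6.98 RPKM in libraries labelled MEF Nf2-/- (log2 fold change -0.29, SE 0.14, adjusted p = 0.624 from limma). Podnl1, the closest relative of Podn, was 1.34, 1.35 and 1.33 RPKM in MEF Nf2fl/fl against 0.748, 0.672 and 0.505 RPKM in libraries labelled MEF Nf2-/-. It passed the filter only through MEF Nf2fl/fl, where it is high, so its fold change (log2 -0.51, SE 0.11) is given without a test, and it is named after its values were seen. Kera and Epyc, the chromosome 10 neighbours of Dcn and Lum, were listed at 0 in 5 of the 6 libraries.

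Genes that act with the proteoglycans were counted from lists, with a threshold of an adjusted p under 0.05 from limma over all genes tested, which 1.06% of all genes passed without the replicate number as a block and 7.53% with it. The lists were chosen with earlier results of these data known, so the adjusted p-values of listed genes below are descriptive and no independent test. Without the block, 11 listed genes passed the threshold, and all 11 passed with it, among them Chst15 and Mmp3, which the filter admitted only through the line where they are high. Without replicate 1 or without replicate 3 of both lines 0 of the 11 passed, as 0 of all genes did there (578 and 556 at an unadjusted p under 0.05 from limma), and 1, Col6a3, passed without MEF Nf2fl/fl replicate 1, MEF Nf2fl/fl replicate 3, or the library labelled MEF Nf2-/- replicate 1 or replicate 3, or with no filter. Without the library labelled MEF Nf2-/- replicate 2 it was 5, Chst1, Chst15, Egfr, Fn1, Matn2 and Met being lost, and without MEF Nf2fl/fl replicate 2 it was 9, Fn1 and Met being lost. Fn1 kept its call in 6 of 16 alternatives. The direction of each of the 11 held in all of these fits. The shares called over all genes were 0.479% higher and 0.578% lower without the block, and 2.99% higher and 4.54% lower with it. At an unadjusted p under 0.05 from limma, 9.91% of all genes tested differed, 4.47% higher and 5.44% lower. By that rule 2 genes of the chain synthesis list below were higher and 6 lower, 3 and 7 of the collagen and partner list, 7 and 1 of the receptor and ligand list, and 2 and 3 of the protease list.

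Of 29 genes that build and sulfate the glycosaminoglycan chains, 23 were tested, and 1 was called higher and 2 lower, or 2 and 5 with the replicate block (median log2 fold change -0.08). Chst11, which sulfates chondroitin, fell from 7.63 ± 1.06 to 3.27 ± 0.128 RPKM (n = 3 each, SD), with a log2 fold change of -1.01 (SE 0.11, adjusted p = 0.0217 from limma). Chst1, which sulfates the galactose of keratan sulfate, fell from 12.1 ± 4.26 to 2.50 ± 0.775 RPKM (n = 3 each, SD), with a log2 fold change of -1.88 (SE 0.28, adjusted p = 0.0408 from limma). Chst15, which adds a further sulfate to chondroitin sulfate, was 0.407, 1.05 and 0.532 RPKM in MEF Nf2fl/fl against 2.28, 2.89 and 2.65 RPKM in libraries labelled MEF Nf2-/-, with a log2 fold change of 1.13 (SE 0.17). It passed the filter only through the libraries where it is high, so its call supports nothing. The most abundant gene of the list, B4galt1, was 32.5 ± 2.08 and 24.0 ± 4.29 RPKM (adjusted p = 0.293 from limma without and 0.0452 with the block).

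Of 20 collagens and fibril partners, 16 were tested, and 0 rose and 3 fell, or 2 and 7 with the replicate block (median log2 fold change -0.53). Col6a3, a chain of the collagen VI that decorin and biglycan bind, fell from 17.9 ± 4.32 to 0.946 ± 0.369 RPKM (n = 3 each, SD), reaching 1 RPKM in 5 of the 6 libraries, with a log2 fold change of -3.27 (SE 0.22, adjusted p = 0.00392 from limma). Fn1 (fibronectin) fell from 475 ± 17.9 to 305 ± 9.43 RPKM (log2 fold change -0.63, SE 0.09, adjusted p = 0.0390 from limma), a call that was lost under quantile normalization, and Matn2 (matrilin 2) from 5.41 ± 1.26 to 2.05 ± 0.316 RPKM (log2 fold change -1.06, SE 0.16, adjusted p = 0.0462 from limma). Col1a1, the main ligand of decorin as part of collagen I and the most abundant gene listed, was 581 ± 139 and 436 ± 153 RPKM (adjusted p = 0.812 from limma).

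Of 24 receptors and ligands bound by these proteoglycans, 17 were tested, and 3 rose and 1 fell, or 4 and 2 with the replicate block (median log2 fold change 0.10). Egfr and Met, receptor tyrosine kinases that decorin binds, rose from 6.48 ± 0.552 to 11.1 ± 0.597 RPKM and from 12.4 ± 0.294 to 19.0 ± 1.08 RPKM (n = 3 each, SD), with log2 fold changes of 0.70 and 0.57 (adjusted p = 0.0329 and 0.0399 from limma). Of the TGF-beta ligands, Tgfb2 rose from 3.04 ± 0.169 to 9.56 ± 2.40 RPKM and Tgfb1 fell from 5.62 ± 0.688 to 2.08 ± 0.456 RPKM, log2 fold changes of 1.36 and -1.11 (adjusted p = 0.0301 and 0.0302 from limma), while Tgfb3 was 32.5 ± 15.9 and 61.2 ± 7.01 RPKM (adjusted p = 0.372 from limma). The most abundant gene, Itgb1, was 335 ± 103 and 345 ± 78.0 RPKM (adjusted p = 0.993 from limma).

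Of 17 proteases and enhancers that process proteoglycans or procollagen, 11 were tested, and 0 were called higher and 1 lower, or 3 and 4 with the replicate block (median log2 fold change -0.12). The gene past the threshold was Mmp3, a stromelysin that cleaves decorin, at 1.36, 1.20 and 1.94 RPKM in MEF Nf2fl/fl, and listed at 0 in replicates 1 and 2 and at 0.0684 RPKM in replicate 3 of the libraries labelled MEF Nf2-/- (adjusted p = 0.0217 from limma). It passed the filter only through MEF Nf2fl/fl, where it is high, so the filter favoured a difference and its call supports nothing. The most abundant gene, Pcolce, was 116 ± 30.6 and 105 ± 28.8 RPKM (adjusted p = 0.981 from limma). Between replicate numbers, 8 of these 11 genes differed, against 4 of 23 of the chain synthesis list, 5 of 16 of the collagen and partner list, 5 of 17 of the receptor and ligand list, 0 of the 2 relatives, 0 of the 3 other matrix proteoglycans and 21.2% of all genes tested (limma F test). Of 16 other matrix proteoglycans 15 had a row and 3 were tested, none of them past the threshold with or without the block, and 0 at an unadjusted p under 0.05 from limma. The most abundant, Hspg2 (perlecan), was 80.9 ± 7.88 and 77.7 ± 4.78 RPKM (log2 fold change -0.05, SE 0.11, adjusted p = 0.981 from limma).

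**Figure D4:**
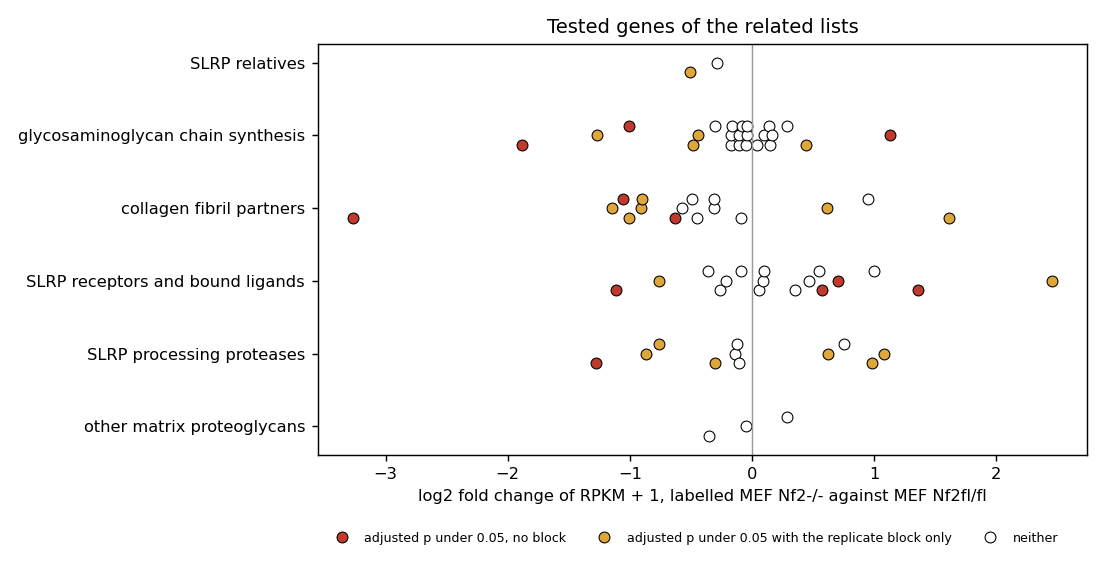
Log2 fold change of RPKM + 1, libraries labelled MEF Nf2-/- against MEF Nf2fl/fl, of each tested gene in the 6 related lists, coloured by whether it passed the threshold without the replicate block, with it only, or in neither fit. The point farthest to the left is Col6a3 at -3.27.

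The genes most like each member were found by the root mean square difference between centred log2(RPKM + 1) profiles over the 6 libraries. Those nearest to Dcn were Angptl2, Clmp and Chst1, at 0.16, 0.17 and 0.18 log2 units. Their RPKM was 20.3, 4.36 and 12.1 in MEF Nf2fl/fl and 5.77, 0.426 and 2.50 in libraries labelled MEF Nf2-/-. Nearest to Aspn was Postn (periostin), a matrix protein of fibroblasts, at 0.20, followed by Fcgrt and Igdcc4 at 0.26 and 0.27. Nearest to Ogn were Fam43a, Peg3 and Synpo at 0.42, 0.45 and 0.50. The nearest genes to Bgn were Gja4, Smim3 and Cyth3 (0.05 to 0.06), to Fmod Itm2a, Evi2a and Serpine2 (0.33 to 0.35), to Prelp Gm17084, Smpdl3a and Col8a2 (0.22 to 0.28), and to Podn C1ra, Plxna2 and Efna3 (0.07 to 0.10). The distance is smaller for genes that vary little, so it does not rank the members against each other.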

How the data were processed

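RNA was measured in 6 libraries, 3 of each line. The authors deposited 1 table of values normalised to gene length and depth, taken here as RPKM, since its unit is not named and the values of low genes, multiplied by exon length (GENCODE vM21, GRCm38), were whole multiples of a step per library within a tolerance of 0.05 reads for 83.8% to 85.6% of values of up to 20 reads, where chance gives 10%. The step gave the depth, and hence the reads per gene. The aligner, the counting tool and the counting of single reads or pairs are not given in the sources used here. The submitters' processing notes name mm10. GENEWIZ made the libraries and ran the analysis.

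Following the study's own adjustment, 1 was added to each RPKM before log2 was taken. The filter kept 11067 genes that reached 1 RPKM in 3 or more libraries. They were fitted in limma 3.58.1 (R 4.3.3), with a trended and robust eBayes step, and two-sided p-values were adjusted by the Benjamini-Hochberg method over all of them. The same-numbered libraries deviated together most clearly in replicate 2 (correlation across genes 0.819). Replicates 1 and 3 (0.552 and 0.516) were only just above the highest correlation between different numbers (0.493). Values from a model blocked on replicate number are given where a call differs. The methods were tested on simulated data. Counting intervals are exact (conditional binomial) and rest on the inferred depth. Promoters are from RefSeq, and figures were drawn with matplotlib 3.10.9.

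The members, gene lists and tests were chosen with earlier results of these data known. Genes are named by a rule: the 8 members, Nf2, listed genes past the threshold, the most abundant gene of each list, and the 3 genes nearest in profile to each tested member. Omd, Ecm2, Kera, Epyc, Podnl1, Tgfb3, Gm15851, Cenpp and the markers named were chosen after their values were seen. Ccn2 was found under its older symbol Ctgf. Impg1, Col9a1, Myod1 and Myf5 were not analysed here. The alternatives changed the filter (none, or 5 RPKM), the pseudocount (0.1), the scaling (quantile normalization or centring on medians), the eBayes step (untrended, not robust) and the block, or left out each library, each replicate number or all but 1 pair.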

Additional observations from a re-analysis of the deposited data

How the results depend on the processing

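With no filter, the eBayes step and the adjustment both ran over 26231 genes. The number of genes past the threshold between the lines (117) was then 9. It was 63 with a filter of 5 RPKM, and 833 with the replicate block, which removes the replicate differences from the error. It ranged from 0 to 484 when replicates or libraries were left out, with 0 without replicate 1 or replicate 3 of both lines, 484 without replicate 2, and 10 to 18 without any single library of replicates 1 and 3. The number between replicate numbers (2347) was 0 with no filter (5077 at an unadjusted p under 0.05 from limma) and ranged from 0 to 2700 when replicates or libraries were left out, with 0 without replicate 2 (921 at an unadjusted p under 0.05 from limma) and 213 and 212 without replicate 2 of MEF Nf2fl/fl or of those labelled MEF Nf2-/-. The causes of these changes were not tested. A pseudocount of 0.1 gave log2 fold changes of -3.85 for Dcn and -1.12 for Lum, by construction. With libraries, replicate numbers or all but 1 pair left out, the log2 fold change ranged from -2.17 to -1.34 for Dcn, -0.62 to -0.23 for Bgn, -0.26 to -0.12 for Lum and 0.41 to 2.08 for Ogn, all of one sign, and from -0.99 to 0.85 for Aspn, -1.90 to 0.26 for Fmod, -1.15 to 1.26 for Prelp (-0.85 to 0.36 with 1 replicate number or library out) and -0.83 to 0.27 for Podn. In this balanced design the block left each fold change as it was, and scaling turned the sign of none of the members. Lum is not among the genes that quantile normalization was run on. Depth limits Lum and the Dcn levels in libraries labelled MEF Nf2-/-.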
